A study of Mus musculus with 2 samples.

Results

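Cxcl12, Cxcr4 and Ackr3 encode a chemokine and its receptors, and their transcripts were followed in single endothelial cells of the developing mouse retina. The genes were chosen as the rows of both count tables that map to these symbols, with earlier measurements of the same libraries in view, so their levels by age and by cluster are a description and carry no test. They are 3 of 22695 genes with a symbol in the P6 library and 3 of 21745 in the P15 library.

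The libraries came from retinas of wild-type C57BL/6 mice at postnatal day 6 (P6), when the vascular plexus is still growing, and at postnatal day 15 (P15). Endothelial cells were sorted as CD31+CD45- cells, which removes leukocytes, and sequenced on the 10x droplet platform with a unique molecular identifier (UMI) on each captured transcript. The wild-type mice carried no reporter or Cre allele, and the number of retinas pooled for a library is not given in the sources used here. There was 1 library per age, so age, animals, sort and sequencing run cannot be told apart, and every interval printed here is a 95% interval for counting error only.

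The P6 library held 1984 barcodes with 13958124 UMIs and the P15 library 2141 barcodes with 11589641 UMIs. Cluster names of the study were at hand for 1560 P6 cells (median 5363.5 UMIs) and for the first 438 P15 cells (median 4355.5 UMIs), in 9 clusters named Arterial, Cap-Arterial, Capillary, Cap-Venous, Venous, Tip, Stalk, Primitive and Proliferative, where Cap-Venous and Cap-Arterial are the capillary clusters with venous or arterial genes. The P15 Venous cluster had 2 labelled cells and is given only as a value. The libraries shared 7 barcode sequences, and 12 P6 and 4 P15 labelled cells held UMIs of both Xist and a Y-linked gene, as a droplet with cells of both sexes would. Levels are given as CPM, the UMIs of a gene for each 1000000 UMIs of the same cells, which is not corrected for gene length. All 7 endothelial markers (summed level 7321 CPM at P6 and 12252 CPM at P15) were detected in the labelled cells of both ages. The 8 pericyte markers summed to 9.75 CPM at P6 (1.79 to 16.4 by cluster) and to 222 at P15 (40.7 to 444 by cluster), and the lists of neural and blood markers were higher at P15 too (21.7 and 104, and 22.3 and 177 CPM). The Muller glia list stood at 337 CPM at P6 (118 to 1592 by cluster) and at 1127 at P15 (422 to 3443 by cluster), highest in Cap-Arterial and Arterial cells at both ages, as Cxcl12 was. Nearly all of it was Glul (glutamine synthetase), at 335 and 1068 CPM over the labelled cells, while Rlbp1 stood at 1.24 and 57.5, Slc1a3 at 0.519 and 0, and Dkk3 at 0.311 and 1.4. Their part in the results below was not tested.

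CXCL12 is a secreted chemokine that binds heparan sulfate and forms gradients in tissue. CXCR4 is its signalling receptor, which couples to inhibitory G proteins and guides migrating cells, whereas ACKR3 (also called CXCR7) is an atypical receptor that signals through arrestins and takes up and degrades the ligand. In growing vessels CXCR4 is known as a gene of tip cells, the leading cells of a sprout, and CXCL12 as a gene of arteries and of the cells around vessels.

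Cxcl12 (ENSMUSG00000061353.11) lies on chr6:117168535-117181367 on the plus strand of GRCm38, with 8176 exonic bases. Cxcr4 (ENSMUSG00000045382.6) lies on chr1:128588199-128592293 on the minus strand, with 1808 exonic bases, and Ackr3 (ENSMUSG00000044337.5) on chr1:90203980-90216751 on the plus strand, with 3348. All are protein-coding genes of GENCODE M21. The 250 bases before each RefSeq start (GRCm38.p6) are shown because the levels of the genes differed by cluster and age. Capitals mark the GC box GGGCGG, the TATA box TATAAA and the hypoxia response cores ACGTG and GCGTG, searched on both strands.
Cxcl12, chr6:117168285-117168534, plus strand: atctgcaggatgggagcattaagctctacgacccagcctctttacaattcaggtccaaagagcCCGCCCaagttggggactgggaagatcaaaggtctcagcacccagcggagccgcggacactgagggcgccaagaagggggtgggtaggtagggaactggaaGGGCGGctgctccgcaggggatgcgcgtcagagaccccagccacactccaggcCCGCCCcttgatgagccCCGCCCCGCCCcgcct
Cxcr4, chr1:128592300-128592549, minus strand: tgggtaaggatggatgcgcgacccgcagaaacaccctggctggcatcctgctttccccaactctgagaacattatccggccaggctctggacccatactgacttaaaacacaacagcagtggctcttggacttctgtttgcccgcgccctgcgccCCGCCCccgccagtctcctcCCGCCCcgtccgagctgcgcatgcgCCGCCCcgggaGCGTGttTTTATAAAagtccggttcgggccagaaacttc
Ackr3, chr1:90203730-90203979, plus strand: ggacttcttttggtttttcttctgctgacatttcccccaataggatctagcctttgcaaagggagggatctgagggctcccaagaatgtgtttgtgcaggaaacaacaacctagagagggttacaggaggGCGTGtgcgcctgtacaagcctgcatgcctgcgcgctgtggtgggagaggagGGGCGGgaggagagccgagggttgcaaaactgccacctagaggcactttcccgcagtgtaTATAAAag

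The Cxcl12 window held 5 GC boxes, of which the pair nearest the start share 1 base, and neither a TATA box nor a hypoxia core. The Cxcr4 window held 3 GC boxes, overlapping TATA boxes on both strands within 32 bases of the start, and 1 GCGTG core. The Ackr3 window held 1 GC box, 1 GCGTG core and a TATA box that began 8 bases before the start. Of 32851 such windows of all genes, 32.7% held the GC box, 12.4% the TATA box, 28.2% GCGTG and 16.6% ACGTG, so each motif is common and a match is a description of letters and not of a bound site.

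Cxcl12, the ligand, was a gene of arterial and arterial-side capillary cells at P6, and its level was several-fold higher in the P15 library. Over the labelled cells, Cxcl12 stood at 82.7 CPM at P6 (77.0 to 88.6, from 797 UMIs) and at 608 at P15 (575 to 642, from 1301 UMIs). The P15 level was 7.35-fold the P6 level (6.73 to 8.04). At least 1 Cxcl12 UMI was seen in 178 of 1560 P6 cells (11.4%) and in 185 of 438 P15 cells (42.2%), and these shares were 8.25% and 38.2% after each cell was thinned to 3000 UMIs, which leaves out 168 P6 and 117 P15 shallower cells. The 1703 P15 barcodes without a label held Cxcl12 at 612 CPM (596 to 628), close to the level of the labelled ones. Of the 11417 genes that reached 30 UMIs over the labelled cells, 7.93% were at least 2-fold higher at P15, among them Cxcl12 and Ackr3, and 49 genes had a larger ratio than Cxcl12.

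By cluster, P6 Cxcl12 was led by Arterial cells at 1229.8 CPM (1080 to 1395, in 26 of 40 cells) and by Cap-Arterial cells at 592 (541 to 647, in 106 of 162 cells). The Arterial level was 2.08-fold the Cap-Arterial level (1.77 to 2.43). The other clusters came far below. Their levels ran from 13.4 CPM in Capillary cells (5.38 to 27.6, 7 UMIs) through Venous, Stalk, Cap-Venous, Primitive and Tip cells to 2.99 in Proliferative cells (0.969 to 6.97, 5 UMIs), and no neighbours among these 7 clusters differed beyond counting error. Barcodes of the same library with neural markers, which should lack an endothelial ligand, held 1.80 CPM (0.0455 to 10.0, 1 UMI in 60 barcodes, median 4620.5 UMIs), so the low P6 clusters were near background.

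At P15 the order was different. Cap-Arterial cells led at 2715 CPM (2533 to 2907, in 65 of 68 cells), followed by Arterial cells at 1141 (862 to 1482, in 9 of 11 cells) and Stalk cells, which trail the tip cell in a sprout, at 683 (604 to 769.6, in 41 of 85 cells). The Arterial level was 0.420 of the Cap-Arterial level (0.315 to 0.551). Primitive, Cap-Venous, Capillary and Tip cells stood between 129 and 84.5 CPM and Proliferative cells at 36.7 from 4 UMIs, and no neighbours among these 5 clusters differed beyond counting error. None was seen in the 2 Venous cells, which allows up to 447 CPM. Other barcodes of the P15 library also held Cxcl12. In the 26 barcodes with blood markers it stood at 788 CPM (677 to 912, in 13 barcodes, median 7669 UMIs). It stood at 118 CPM in barcodes with pericyte markers (84.1 to 162, in 20 of 73 barcodes or 27.4%, median 4186 UMIs), and pericytes are not a cell type that should lack this gene. The 8 neural-marked barcodes, with 1 UMI or 17.0 CPM (0.430 to 94.7), were too few to set a background. In the 6 barcodes with Muller glia markers Cxcl12 stood at 2444 CPM (1782 to 3269.6, in 5 of 6), beside 6679 CPM of Glul, 923 of Slc1a3 and 4018 of the summed endothelial markers. In the P15 Cap-Arterial and Arterial cells Glul stood at 2807 and 3443 CPM, Slc1a3, Aqp4 and Dkk3 had no UMI, and Rlbp1 stood at 36.3 and 0, against 90.3 in Cap-Venous cells. The summed pericyte markers were at 165 CPM in Cap-Arterial, 40.7 in Arterial, 359 in Stalk and 444 in Capillary cells. The part of any of these sources in the cluster levels was not tested.

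Among the clusters low in Cxcl12 at P15, the share of cells with a UMI was 28.4% in Cap-Venous (38 of 134), 28.3% in Tip, 19.4% in Primitive and 19.0% in Capillary cells. Over the larger sets with predicted labels, given further below, the level was 425 CPM in Capillary (348 to 513, 27.8% of cells), 233 in Cap-Venous (216 to 249.9, 34.3%), 202 in Primitive (163 to 249, 23.5%) and 61.6 in Tip cells (47.3 to 78.8, 22.9%). Whether cells of these clusters express the gene at this level cannot be told apart from RNA of other cells.

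**Figure D1:**
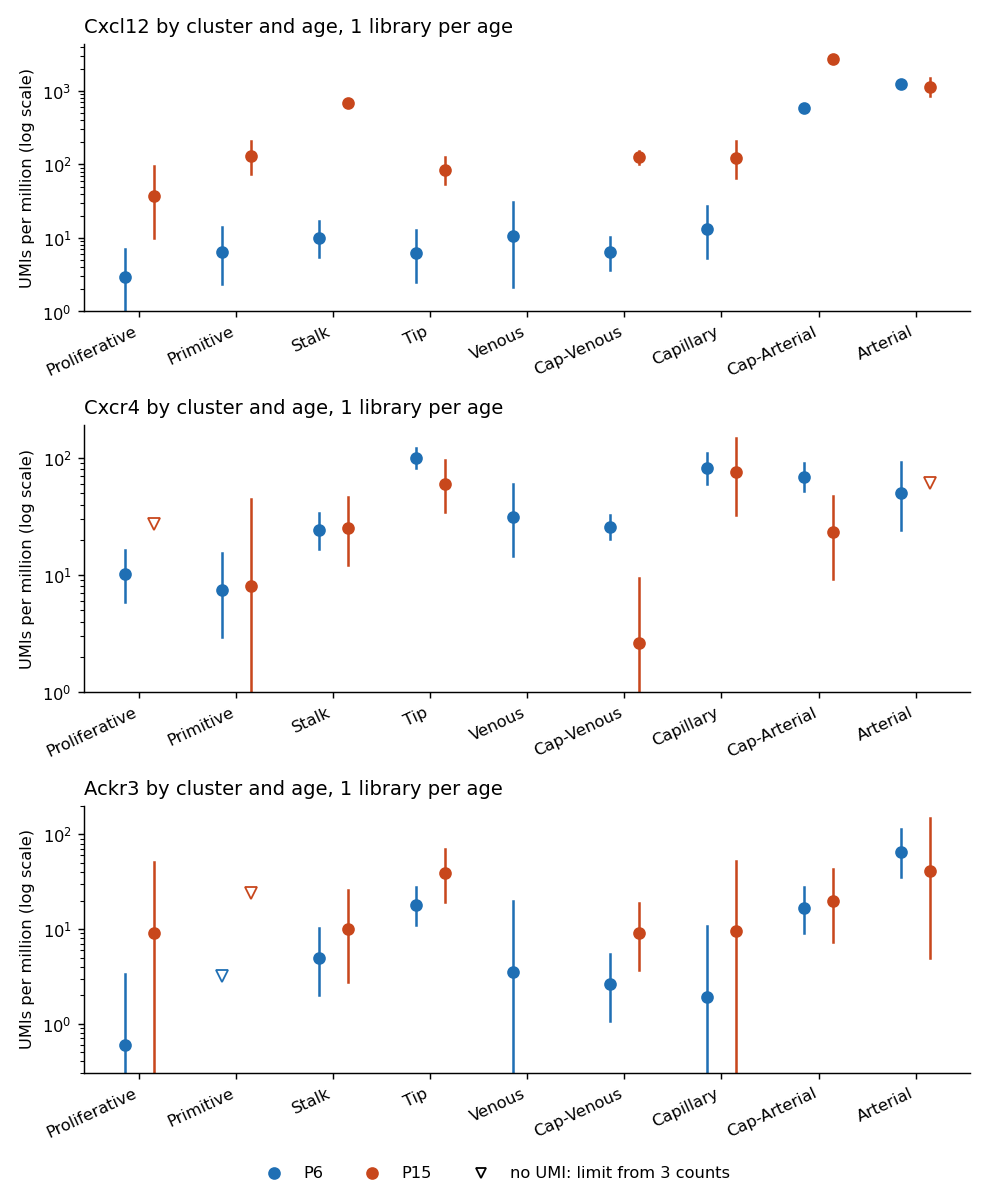
Level of Cxcl12, Cxcr4 and Ackr3 in CPM (vertical log axis) by cluster (horizontal axis) at P6 and P15, with 95% counting intervals and open triangles at the limit set by 3 counts where none was seen; the P15 Venous cluster of 2 cells is left out. Cxcl12 peaks in Arterial cells at P6 (1229.8) and in Cap-Arterial cells at P15 (2715), and Cxcr4 is high in Tip cells at both ages (100.1 and 59.8).

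Within clusters, the age ratio of Cxcl12 ranged widely. Stalk cells went from 9.97 to 683 CPM, a ratio of 68.5 (40.1 to 127) whose P6 level, from 14 UMIs, was near background. Cap-Arterial cells went from 592 to 2715, a ratio of 4.59 (4.10 to 5.14). Arterial cells stood at 1229.8 and 1141, a ratio of 0.928 (0.681 to 1.25) whose interval holds 1. The remaining clusters with UMIs at both ages, whose P6 level was also near background, had ratios from 9.18 in Capillary cells to 20.3 in Primitive cells. With the Cap-Arterial and Arterial cells left out of both ages, the ratio over the other labelled cells, again near background at P6, was 34.5 (26.2 to 46.1). With the P15 clusters weighted to the P6 mix, the ratio over all labelled cells was 5.20. When labels were predicted for the remaining P15 cells from their nearest labelled neighbours, the P15 Stalk level was 553 CPM (509 to 599) over 250 cells and the Cap-Arterial level 2743 (2651 to 2838) over 277 cells. The Arterial ratio was then 0.704 (0.572 to 0.865) over 42 P15 cells, an interval below 1, and the Cap-Venous ratio 36.6 (22.7 to 63.2).

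**Figure D2:**
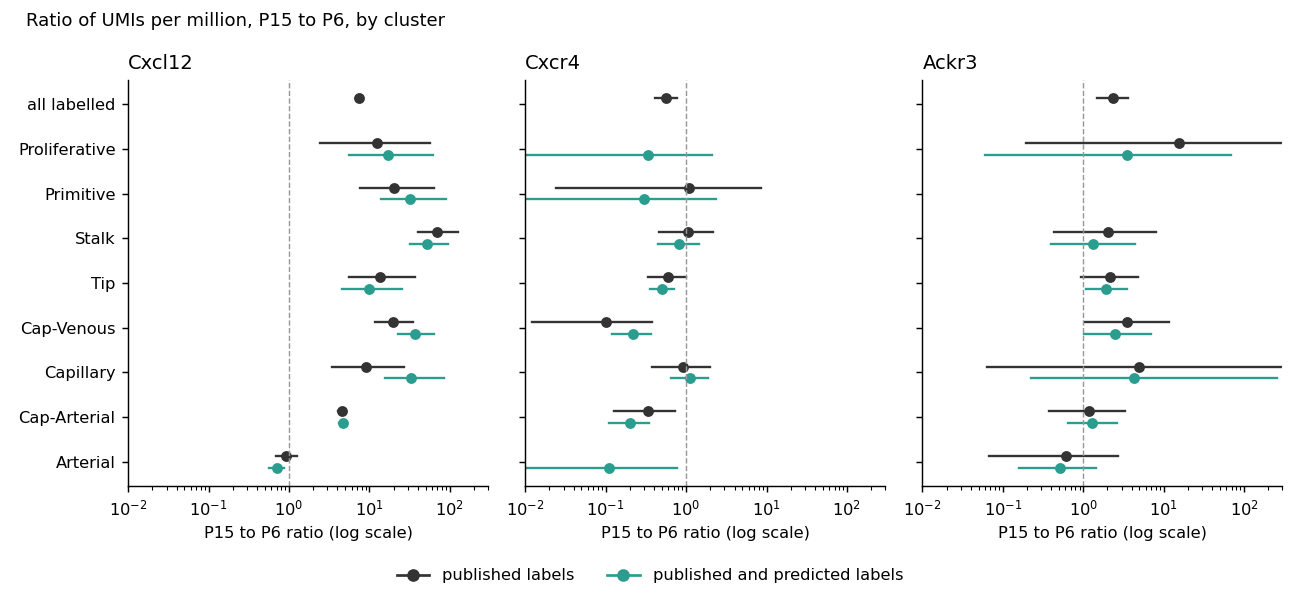
Ratio of the P15 to the P6 level of each gene by cluster and over all labelled cells (log axis, 95% counting intervals); sets with 0 UMIs in either library are not drawn and the Venous cluster is left out. Cxcl12 stands above 1 in every drawn cluster except Arterial, with 68.5 in Stalk cells, whose P6 level was near background. Cxcr4 stands below 1 in Cap-Venous and Cap-Arterial cells.

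The transcripts were spread unevenly over cells. At P6 the Cap-Arterial and Arterial cells, 12.9% of the labelled cells, held 92.6% of all Cxcl12 UMIs. At P15 these clusters made up 18.0% of the cells and held 67.5% of the UMIs, and the share of Stalk cells went from 1.76% to 20.8%. Among the 40 P6 Arterial cells the median was 1.5 UMIs and the highest 30, with 10 cells at 10 or more. Arterial cells without a Cxcl12 UMI were thus common at P6. P6 Cap-Arterial cells had a median of 1 UMI with 12 of 162 cells at 10 or more, against a median of 9, a maximum of 45 and 33 of 68 cells at 10 or more at P15. P15 Stalk cells were split, with 44 of 85 at 0, 10 cells at 10 or more and a maximum of 29. A cell at 0 may hold transcripts that were not captured: at an even level set by depth, 76.7 of the 85 Stalk cells would hold a UMI, against 41 seen.

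**Figure D3:**
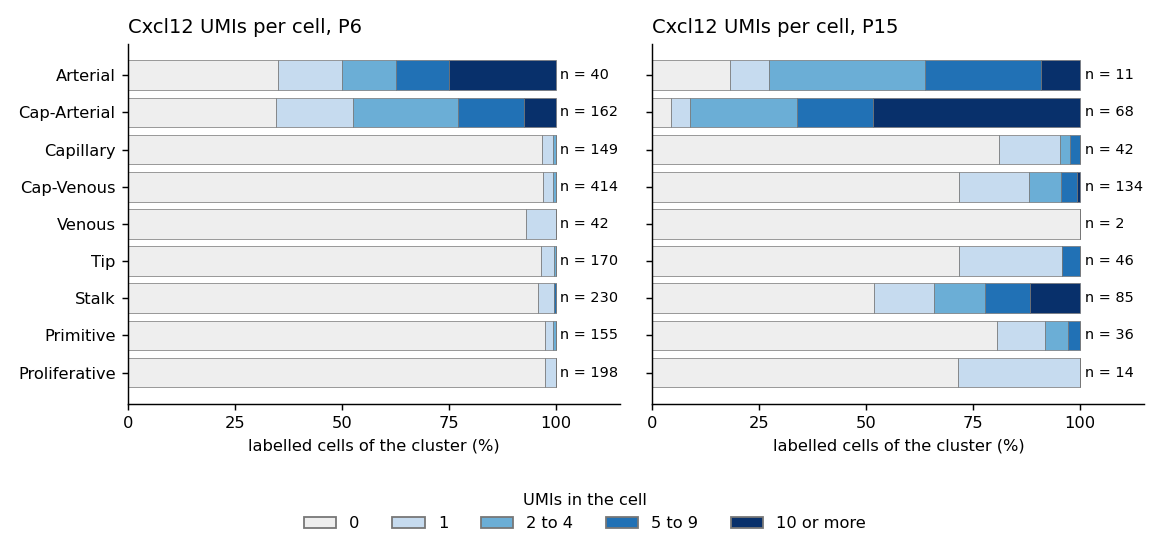
Share of the labelled cells of each cluster in bins of Cxcl12 UMIs per cell, from 0 to 10 or more, at P6 and P15, as stacked bars. At P15, 33 of 68 Cap-Arterial cells hold 10 or more UMIs, against 12 of 162 at P6, and 44 of 85 P15 Stalk cells are at 0.

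Cxcr4, the signalling receptor, was most abundant in Tip cells at P6 and among the most abundant there at P15, and its level was lower in the P15 library. Over the labelled cells it stood at 37.2 CPM at P6 (33.5 to 41.3, 359 UMIs in 238 cells or 15.3%) and at 21 at P15 (15.3 to 28.1, 45 UMIs in 35 cells or 7.99%). The P6 level was 1.77-fold the P15 level (1.3 to 2.47). After thinning to 3000 UMIs, 9.08% of P6 and 5.28% of P15 cells held a UMI.

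P6 Tip cells held Cxcr4 at 100.1 CPM (82.4 to 120.4, in 63 of 170 cells), 3.45-fold the level of the other labelled cells (2.74 to 4.33). Capillary cells followed at 82.2 (59.5 to 111), 2.37-fold their others, Cap-Arterial cells at 69.4 (52.7 to 89.7), 2.03-fold, and Arterial cells at 50.6 (24.3 to 93.1). Venous, Cap-Venous and Stalk cells lay lower, at 31.6, 25.9 and 24.2 CPM. The lowest were Proliferative cells at 10.2 (5.91 to 16.3, 17 UMIs) and Primitive cells at 7.43 (2.99 to 15.3, 7 UMIs). Only the step from Stalk to Proliferative cells exceeded counting error between neighbours in this order. Neural-marked barcodes of the library held 5.39 CPM (1.11 to 15.8, in 3 of 60 barcodes, 5.0%), so the Proliferative and Primitive shares (6.57% and 3.87%) were near background.

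At P15, Capillary cells stood at 75.7 CPM from 8 UMIs (32.7 to 149), 4.16-fold the other labelled cells (1.67 to 9.08). Tip cells stood at 59.8 from 17 UMIs (34.8 to 95.8, in 14 of 46 cells), 3.97-fold the other labelled cells (2.04 to 7.50). With predicted labels Capillary cells held 91.3 CPM and Tip cells 49.8, a ratio of 1.83 (1.07 to 3.05). Stalk cells stood at 25.3 (12.1 to 46.5), Cap-Arterial cells at 23.1 (9.30 to 47.6) and Primitive cells at 8.07 from 1 UMI. Cap-Venous cells held 2 UMIs, both in 1 of 134 cells, or 2.62 CPM (0.317 to 9.46). In the order of the study's labels only Tip and Stalk cells differed beyond counting error among neighbours. No Cxcr4 UMI was seen in 11 Arterial cells, which allows up to 61.1 CPM, nor in 14 Proliferative cells, which allows up to 27.5. The pericyte-marked barcodes held 30.3 CPM (14.5 to 55.8, in 9 of 73 barcodes, 12.3%), against a Tip share of 30.4%, and the 8 neural-marked barcodes held none, which allows up to 51.0 CPM.

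The lower P15 level of Cxcr4 was uneven across clusters. In Cap-Venous cells the P15 to P6 ratio was 0.101 (0.0120 to 0.379) and in Cap-Arterial cells 0.333 (0.128 to 0.731). In Tip cells it was 0.598 (0.336 to 1.0), in Capillary cells 0.920 and in Stalk cells 1.05, each with an interval that reaches 1. With predicted labels the ratio was 0.216 (0.121 to 0.367) in Cap-Venous, 0.201 (0.11 to 0.35) in Cap-Arterial and 0.50 (0.352 to 0.702) in Tip cells. No test of the difference between these ratios is available with 1 library per age.

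Ackr3, the ligand-degrading receptor, was the least abundant of the 3 and was detected in few cells. Over the labelled cells it stood at 6.64 CPM at P6 (5.11 to 8.48, 64 UMIs in 52 cells or 3.33%) and at 15.4 at P15 (10.6 to 21.7, 33 UMIs in 28 cells or 6.39%), a ratio of 2.32 (1.48 to 3.59). At P6, Arterial cells led at 65.8 CPM (35.0 to 113, 13 UMIs in 7 of 40 cells), followed by Tip cells at 17.9 (10.9 to 27.6, in 16 of 170 cells) and Cap-Arterial cells at 16.7 (9.16 to 28.1, in 13 of 162 cells). The Arterial level exceeded the Tip level beyond counting error, but it rested on few cells. Without the 5 Arterial cells of highest Ackr3 count, the Arterial ratio to the other cells was 2.76 in place of 12.2. All other cells were kept, so this cut lowers the ratio by construction. The other clusters stood at 4.98 CPM or lower, and none of 155 Primitive cells held a UMI, which allows up to 3.18 CPM. The neural-marked P6 barcodes held none.

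At P15, Tip cells held Ackr3 at 38.7 CPM (19.3 to 69.3, 11 UMIs in 8 of 46 cells), Cap-Arterial cells at 19.8 (7.27 to 43.1) and Arterial cells at 40.7 from 2 UMIs (4.93 to 147). Stalk, Capillary, Cap-Venous and Proliferative cells stood between 10.1 and 9.16 CPM, and none of 36 Primitive cells held a UMI, which allows up to 24.2 CPM. No neighbours in the P15 order differed beyond counting error. The pericyte-marked barcodes stood higher, at 69.7 CPM (44.2 to 105, in 12 of 73 barcodes or 16.4%), against a Tip share of 17.4%, and the part of their RNA in the cluster levels was not tested. Among clusters with UMIs at both ages the P15 to P6 ratio of Ackr3 had an interval above 1 in Cap-Venous cells alone, 3.48 (1.04 to 11.6), from 7 UMIs at each age.

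Read against all genes, the Tip and Arterial patterns of the receptors and the ligand differed in how common they were. In P6 Tip cells Cxcr4 and Ackr3 were among the 2.63% of tested genes at least 2-fold higher than in the other labelled cells, and Cxcl12 among the 6.43% at least 2-fold lower. The P15 Tip cells had the same members on the same sides, with 3.25% of genes higher and 8.58% lower. In P6 Arterial cells Cxcl12 (21-fold, 18.0 to 24.4) and Ackr3 (12.2-fold, 6.08 to 22.7) were among the 13.9% of genes at least 2-fold higher. In the 11 P15 Arterial cells 12.6% of genes were at least 2-fold higher, Ackr3 among them from 2 UMIs, and 26.1% were at least 2-fold lower, Cxcr4 among them from 0 UMIs, so these calls are of common size at that depth. Cxcl12 was 1.92-fold higher there (1.44 to 2.51). Without the 5 of these 11 Arterial cells of highest count it was 0.599 of the other cells, a cut that lowers the ratio by construction. Since the clusters were made from the same counts, these are descriptions.

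Ligand and receptor transcripts were seen in the same cell at about the rate their clusters set. The receptors met more often. Thinning for depth left about 9.25 cells with both receptors at P6 and 3.24 at P15. The interval of the ratio to the within-cluster expectation then held 1 at both ages. At P6, 44 cells held UMIs of both Cxcl12 and Cxcr4, against 27.2 if cells were independent and 40.0 if they were independent within each cluster. Of these 44 cells, 33 were Cap-Arterial and 5 Arterial. Cxcl12 and Ackr3 were together in 16 cells, against 5.93 overall and 14.2 within clusters. Cxcr4 and Ackr3 were together in 25 cells, against 7.93 overall and 12.6 within clusters, a ratio to the latter of 1.99 (1.29 to 2.93). Thinned to 3000 UMIs, that within-cluster ratio was 2.13 with an interval (0.949 to 3.94) that holds 1. At P15 the receptors shared 8 cells against 3.32 within clusters (2.41, 1.04 to 4.74), and the thinned ratio was 2.92 (0.558 to 7.91). Cxcl12 and Cxcr4 shared 13 cells against 15, and Cxcl12 and Ackr3 15 cells against 13.1. Over all 1644 P15 cells that passed the filters, with predicted labels and without thinning, the receptors shared 19 cells against 7.96 within clusters (2.39, 1.44 to 3.73). In Tip cells 9 of the 16 cells with Ackr3 also held Cxcr4 at P6, against 5.93 if independent, and 6 of 8 at P15, against 2.43, and both intervals of the ratio hold 1.

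**Figure D4:**
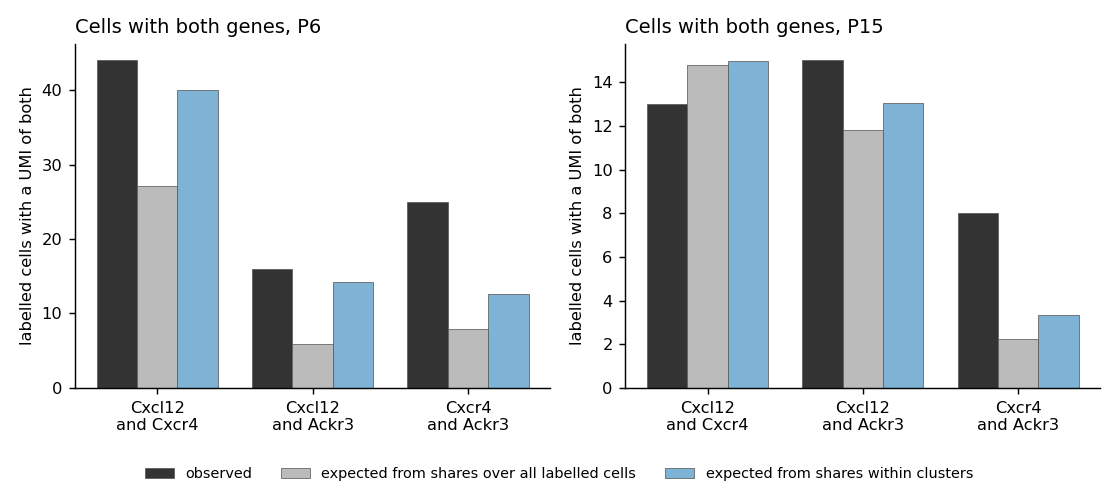
Number of labelled cells with UMIs of both genes of a pair at P6 and P15, beside the number expected if detection were independent over all cells and within clusters. The receptor pair Cxcr4 and Ackr3 stands above both expectations (25 cells against 7.93 and 12.6 at P6), and Cxcl12 with Cxcr4 close to the within-cluster one (44 against 40.0 at P6).

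At least 1 of the 3 transcripts was seen in 392 of 1560 P6 cells (25.1%) and in 214 of 438 P15 cells (48.9%). Cells with the ligand and no receptor UMI numbered 127 at P6 and 159 at P15, and cells with a receptor UMI numbered 265 and 55. Of the cells with Cxcl12, 28.7% also held a receptor at P6 and 14.1% at P15. All 3 transcripts met in 9 P6 cells and in 2 P15 cells. Cells rich in UMIs are more likely to hold any transcript, so the shares are tied to depth.

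Within a cluster, cells with a member's UMI were set beside those without it for the summed level of arterial, venous and Tip genes. Such a sum is weighted to the most abundant genes of its list. In P6 Cap-Arterial cells the summed arterial genes were 1.64-fold higher in cells with Cxcl12 (1.5 to 1.79), 1.76-fold in cells with Cxcr4 and 2.47-fold in cells with Ackr3 (2.25 to 2.71). The largest parts of this sum were Gja4, a connexin of arteries (1859 CPM), and Sox17 (714). Hey1, a Notch target, stood at 185 and Gja5, another connexin of arteries, at 17.9. The summed venous genes were lower in the Cap-Arterial cells with a member, at 0.712, 0.80 and 0.423 of the level in cells without it. The largest parts of this sum in P6 Cap-Arterial cells were Emcn (475 CPM), Slc38a5 (450) and Aplnr, the apelin receptor (319). Nr2f2, the factor that sets venous identity, stood at 44.3. Of the listed venous genes, Emcn and Ephb4 were highest in Cap-Arterial cells at P6. In P6 Tip cells the summed Tip genes were 1.62-fold higher in cells with Ackr3 (1.47 to 1.78) and 1.26-fold in cells with Cxcr4 (1.17 to 1.36). The largest part of this sum in P6 Tip cells was Cd34 (1347 CPM), a gene found in 1507 of the 1560 labelled P6 cells. Esm1 and Angpt2, secreted products of sprouting cells, stood at 189 and 103. The arterial genes of these Tip cells had a larger ratio with Cxcr4, 1.77 (1.55 to 2.01), and 1.17 with Ackr3 (0.962 to 1.41). In P15 Stalk cells with Cxcl12 the arterial genes were 1.81-fold (1.5 to 2.21) and the venous genes 0.755 of the level in Stalk cells without it. The Stalk cells with the ligand thus had the higher arterial and the lower venous sum. In P15 Stalk cells the largest parts of the arterial sum were Sox17 (395 CPM), Jag1 (299) and Nrp1 (276), with Hey1 at 86.0 and Gja4 at 65.8. At P15 Nrp1 was highest in Tip cells (345), and Jag1 was lower in Cap-Arterial (142) but highest in Arterial cells (856). Which genes carried the ratio was not tested. In P15 Cap-Venous cells with Cxcl12 the arterial ratio was 1.07 and the venous ratio 0.798. The P15 Cap-Arterial cells did not show the P6 contrast: the arterial ratio was 0.687 (0.496 to 0.979) for Cxcl12, with 3 cells without it, 0.891 for Cxcr4 and 1.0 for Ackr3, and the venous ratio 1.49 (0.804 to 3.14), 0.579 (0.35 to 0.906) and 1.47 (1.14 to 1.86). Cells of 1 library are not replicates, and these intervals count UMIs only.

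Over all labelled P6 cells, single partner genes were tried in the same way, each as the level of a member in cells with the partner over cells without it. For Cxcl12 the interval lay above 1 with all 10 arterial genes, from 49.4 (36.2 to 69.2) with Gja4 to 1.21 with Nrp1, and below 1 with 6 of 7 venous genes, Ephb4 (1.68, 1.46 to 1.94) being the exception. It lay below 1 with 6 of 8 Tip genes and all 6 genes of dividing cells. At P15 the Gja4 ratio was 3.75. For Cxcr4 the Tip genes were divided. The interval lay above 1 with 3 of 8, Esm1 (2.67, 2.01 to 3.49), Angpt2 (2.11) and Dll4 (1.90), and below 1 with Apln (0.548, 0.439 to 0.682) and Plaur (0.684, 0.511 to 0.902). Cxcr4 lay above 1 with 4 of 10 arterial genes, Hey1 the highest (3.28), below 1 with 5 of 7 venous genes, and above 1 with Vwf (1.44). For Ackr3 the interval lay above 1 with 9 of 10 arterial and 4 of 8 Tip genes, such as Hey1 (8.51) and Esm1 (5.38, 3.0 to 9.32), and below 1 with Cd34 (0.235, 0.0951 to 0.75). The genes of dividing cells lay below 1 in 6 of 6 for Cxcr4 and in 5 of 6 for Ackr3. The receptor patterns were mostly not seen at P15, where Cxcr4 had 45 UMIs and Ackr3 33. There the interval lay above 1 with 0 of 9 arterial genes for Cxcr4 (Hey1 0.998) and with 1 of 9 for Ackr3. Among the Tip genes it lay above 1 with 4 of 8 for Cxcr4 and 3 of 8 for Ackr3. Cxcr4 with Apln was on the other side of 1 than at P6, at 2.13 (1.13 to 4.04), and with Plaur the interval held 1.

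The genes whose P6 cluster profile was most like that of a member were ranked by Pearson's r of log2(CPM + 10) over the 9 clusters, among 5870 genes with at least 200 UMIs. For Cxcl12 they were Stmn2 (a stathmin of microtubules, r = 0.990), Ptn (the growth factor pleiotrophin, 0.988), Nebl (the actin-binding protein nebulette, 0.987), Cd24a (a surface glycoprotein, 0.984) and Depp1 (0.984). All 5 were highest in Arterial and next highest in Cap-Arterial cells. Their P15 to P6 ratios parted. Depp1 stood at 24.8 and 338 CPM, a ratio of 13.6 (11.8 to 15.9), Nebl had a ratio of 5.27 and Ptn of 3.0, whereas Cd24a had 0.777 and Stmn2 0.400. Over the 8 P15 clusters with at least 10 cells, r with Cxcl12 was 0.967 for Cd24a, 0.924 for Nebl and 0.676 for Stmn2.

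The Cxcr4 profile was most like those of Npdc1 (r = 0.965), Sec11c (a signal peptidase subunit, 0.964), Ctsl (the lysosomal protease cathepsin L, 0.955), Serinc1 (0.946) and Pon2 (a paraoxonase, 0.941). These genes varied little, as Ctsl did between 153 CPM in Proliferative and 384 in Tip cells, and r was lower for all 5 at P15, from 0.212 to 0.760. The Ackr3 profile was most like those of Mgst3 (a microsomal glutathione transferase, 0.977), Grp (gastrin-releasing peptide, 0.967), Zfpl1 (0.966), Sh3bgrl (0.965) and Atp6v0e (a proton pump subunit, 0.962), with P15 values from 0.0489 to 0.829. Between the members themselves r was 0.835 for Cxcl12 with Ackr3, 0.550 for Cxcr4 with Ackr3 and 0.394 for Cxcl12 with Cxcr4 at P6. At P15 these values were 0.366, 0.133 and -0.00108. The points share a library and clustering, so no p is given.

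The genes around the axis were described from lists set by function. The median age ratio over all tested genes was 1.08. Of the other ligands of these receptors, Adm (adrenomedullin, a vasoactive peptide that ACKR3 also takes up) went from 95.2 to 439 CPM, a ratio of 4.61 (4.21 to 5.06), and was highest in Tip cells at both ages (274 and 1182). Mif, a cytokine that binds CXCR4, went from 379.6 to 213 (ratio 0.560), and Hmgb1, a chromatin protein that joins CXCL12 outside the cell, from 703 to 462 (0.657). Cxcl11, the other chemokine of ACKR3, had 3 and 2 UMIs. Dpp4, the peptidase that inactivates CXCL12, stood at 11.8 and 55.6 CPM, a ratio of 4.70 (3.61 to 6.13).

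Over all 11417 tested genes, 7.93% were at least 2-fold higher and 7.95% at least 2-fold lower at P15, and the counts below are to be read against these shares. Of 9 genes of inhibitory G proteins, receptor kinases, arrestins and receptor turnover with at least 50 UMIs in a library, none differed 2-fold between ages and the median ratio was 1.04. Gnai2, the most abundant, stood at 906 and 943 CPM, and Arrb2, an arrestin that ACKR3 recruits, at 10.7 and 7.47. Of 3 heparan sulfate carriers, which hold CXCL12 at the cell surface and in matrix, none differed 2-fold, with Hspg2 (perlecan) at 238 and 213. Of 5 transcription factors known for these genes, 1 passed 2-fold: Sox17, an arterial factor, at 235 and 499.9 (ratio 2.13, 1.98 to 2.29). Epas1 (ratio 1.61) and Hif1a (1.65), the hypoxia-inducible factors, stood higher at P15, and Dach1, a factor that acts on Cxcl12 in arteries, lower (0.672, 0.495 to 0.896).

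Other chemokine receptors were scarce. Of 20 listed, Ackr2, a scavenger of inflammatory chemokines, was the only receptor with at least 50 UMIs, at 50.6 and 60.7 CPM, and highest in Tip cells at both ages (83.1 and 109). Of 18 other chemokines, 3 reached 50 UMIs. Cx3cl1 (fractalkine, a membrane-bound chemokine) had a ratio of 2.10 (1.47 to 2.98) and was highest in Arterial cells at both ages (70.9 and 61.1), Ccl25 had 1.75, and Pf4, a platelet chemokine, had 127 UMIs at P6 and 2 at P15. For scale, all 6 genes of dividing cells were at least 2-fold lower at P15 (7.95% of all tested genes), with a median ratio of 0.189. The Tip genes had a median of 0.857, the arterial genes 1.43 and the venous genes 1.11.

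**Figure D5:**
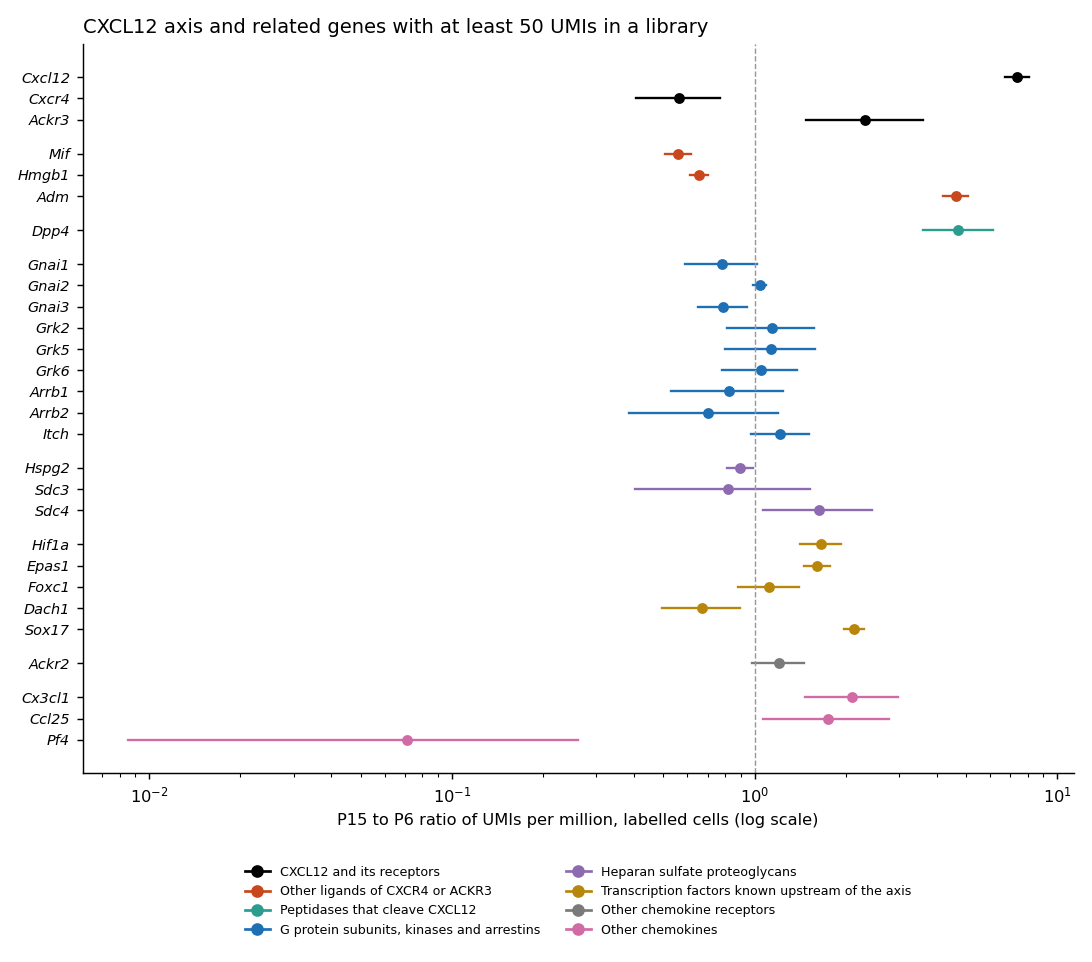
Ratio of the P15 to the P6 level (log axis, 95% counting intervals) of Cxcl12, Cxcr4, Ackr3 and the listed genes around the axis with at least 50 UMIs in a library, grouped by role. Cxcl12 (7.35), Dpp4 (4.70) and Adm (4.61) lie farthest above 1 and Pf4 (0.0709) farthest below.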

How the data were processed

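For each library the authors deposited a table of raw UMI counts, with a row per gene and a column per barcode. The submitters' processing notes name mm10 and Seurat 3.0, and the aligner and annotation behind these counts are not given in the sources used here. Cell clusters were taken from the study's source data, of which the copy at hand holds all labelled P6 cells and the first 438 P15 cells. The members and gene lists were chosen with earlier results of these data known.

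From the counts, the level of a gene in a cluster (CPM) was taken as its summed UMIs over the total of those cells. Levels carry exact Poisson intervals, shares Clopper-Pearson intervals and ratios conditional binomial intervals, at 95% and for counting error only. A count of 0 was bounded with 3 counts. No test was run, since each age had 1 library. Genes were compared with all others at 30 UMIs or more and called at 2-fold, without regard to error. Likeness used genes with at least 200 UMIs and clusters of at least 10 cells, and the 5 genes of highest r were named. Of the listed genes, those with at least 50 UMIs in either library entered the counts of genes past 2-fold and the list medians. Shares of cells were thinned to 3000 UMIs per cell only where this is said, and the other shares are tied to depth. Unlabelled barcodes were assigned to a cell type by marker lists with at least 5 marker UMIs, and doublets were not removed beyond the study's own labels. The filter alternative used 200 to 3500 genes, a mitochondrial share of up to 5% and left out cells with Neurod1, Cd63 or Hbb-bt, and 161 P6 and 29 P15 labelled cells did not pass it. Labels of other cells were predicted from 15 neighbours on 13 principal components computed without the members, and held-out labelled cells were predicted correctly in 76.2% (P6) and 82.6% (P15). All steps were run with scikit-learn 1.9.0, pandas 2.3.3, scipy 1.17.1 and numpy 2.4.6 under Python 3.11.15, and the statistics were tested on simulated data. Gene positions are from GENCODE M21 (GRCm38), matched by gene identifier, and upstream sequences from RefSeq (GRCm38.p6).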

Additional observations from a re-analysis of the deposited data

Results flagged for a closer look

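The Arterial level of Cxcl12 was 2.08-fold the Cap-Arterial level in the P6 library (1.77 to 2.43) and 0.420 of it in the P15 library (0.315 to 0.551), a contrast that points in opposite directions at the 2 ages. The difference was not tested, since there was 1 library per age. The P15 value rests on 11 Arterial cells, and with predicted labels it was 0.316 (0.267 to 0.371) over 42 Arterial and 277 Cap-Arterial cells.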

How the results depend on the processing

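No paired analysis was possible because each age had 1 library. Of 109 alternative values over 18 results, 84 stayed within the counting interval of the reported value or, for shared genes, within 1.5 times, and 1 turned direction. The Cxcl12 age ratio of 7.35 became 6.46 over cells passing the filter, 6.44 after thinning, 6.07 as a mean over cells, 6.64 without mitochondrial and ribosomal UMIs in the totals, 9.66 over every barcode, 5.20 at the P6 mix of clusters and 34.5 without Cap-Arterial and Arterial cells. Without the 5 Arterial cells of highest count, Cxcl12 in Arterial against other cells was 14.4 in place of 21 at P6. At P15 it was 0.599 in place of 1.92, which turned the direction. Ackr3 was 2.76 in place of 12.2 at P6 and 0 in place of 2.75 at P15. All other cells were kept here, so these ratios fall by construction. At P15 the cut took 5 of the 11 Arterial cells, including all with an Ackr3 UMI. With Arterial and Cap-Arterial cells joined, Cxcl12 was 104 at P6 and 10.6 at P15, and Ackr3 6.08 at P6. Predicted labels gave 1.31 for P15 Cxcl12. Within clusters, co-detection over expectation was 1.1 for Cxcl12 with Cxcr4 (1.62 over all cells), 1.12 for Cxcl12 with Ackr3 (2.70) and 1.99 for the receptors (3.15) at P6. With at least 2 UMIs required, Cxcl12 with Ackr3 gave 5.63 at P6, from 3 cells against 0.533 expected, and 0 at P15 (1.27). The receptors gave 20.9 at P15 (3.58), from a single cell against 0.0479 expected, too few to read as a rate. Ranked by Spearman's rho, 1 of the 5 genes most like Cxcl12, 2 for Cxcr4 and 0 for Ackr3 were shared, and with genes from 50 UMIs 3 for Cxcl12. The cause was not tested where the alternative's own construction does not show it. The cluster mix, the joined clusters and the run without Cap-Arterial and Arterial cells were chosen after seeing the data. The Cxcr4 age ratio stayed between 0.428 and 0.628 and that of Ackr3 between 1.64 and 3.25. Ackr3 rests on 64 and 33 UMIs in the labelled cells, and the P15 Arterial cluster on 11 cells.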
